A study of Homo sapiens with 2 samples.

Results

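Aldehyde dehydrogenases (ALDHs) were followed in A549 cells, established from a human adenocarcinoma of the lung, grown as spheroids or as a monolayer. The 8 genes examined were ALDH1A1, ALDH1A3, ALDH1B1, ALDH2, ALDH3A1, ALDH3A2, ALDH3B1 and ALDH7A1, taken by symbol, and all 16 probe sets annotated with one of them were read, of 54675 probe sets and 19775 genes on the array. Spheroid cells were kept for 12 days in suspension in DMEM/F12 without serum, to which N2, EGF at 20 ng/ml and bFGF at 10 ng/ml had been added, and monolayer cells for 12 days in DMEM with 10% FBS. The effects of attachment, of the medium, of serum and of the added factors therefore cannot be told apart. There was 1 array per culture, an Affymetrix Human U133 plus 2.0, so that no difference between the cultures had a replicate check and no test was run. In bulk RNA of this kind, fewer cells with a transcript and less of it per cell cannot be told apart.

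ALDHs oxidise aldehydes to acids with NAD or NADP. ALDH1A1 and ALDH1A3 are cytosolic enzymes that turn retinaldehyde into retinoic acid, ALDH1B1 and ALDH2 act in mitochondria and clear acetaldehyde, the ALDH3 enzymes take up fatty, aromatic and lipid-peroxidation aldehydes, and ALDH7A1 serves lysine breakdown. High ALDH activity is widely used to mark stem-like cells in carcinoma. The study measured it in these cultures with a fluorescent substrate that several ALDH isoforms can convert. It reported more of this activity in spheroid than in monolayer culture, which is a measure of enzyme and not of RNA. The array asks which ALDH transcripts accompany each culture.

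The deposited values are linear signal intensities, 1 for each probe set and array, and the authors had scaled both arrays to the same average. Signals below the median of an array, 119 in spheroid and 108 in monolayer culture, were treated as being at a floor and raised to it. Each gene was read from its brightest probe set, and a ratio is always spheroid over monolayer. Of the 16 ALDH probe sets 14 were above the floor, and every one of the 8 genes had at least 1 such probe set in both cultures. The epithelial keratins KRT8 and KRT18 gave signals of 18884 and 39147 in spheroid culture, against 22924 and 50068 in monolayer culture. Of the other epithelial genes KRT19 was 4.64-fold higher, with 889 in spheroid and 191 in monolayer culture, KRT7 3.75-fold lower, with 7323 in spheroid and 27459 in monolayer culture, CDH1 1.67-fold lower and EPCAM 1.42-fold higher. The free text deposited with both samples names Huh7, a hepatoma line, and a treatment with PGG. The cell line field, protocols and methods give A549 without that treatment, which was followed here. Among the hepatocyte genes, counted with RBP4 below, ALB read 4639 in spheroid and 23.4 in monolayer culture. AFP read 263 in spheroid and 106 in monolayer culture, CYP3A4 391 and 185, and APOB 161 and 189. APOA2, TTR and TF were at the floor in both cultures. What these values mean for the line was not tested. Every probe set was at the floor in both cultures for 3 of 7 fibroblast genes, for 4 of 5 endothelial genes and for PTPRC among 4 measured leukocyte genes. Of the leukocyte genes, CD14 had 111 in spheroid and 437 in monolayer culture, at least 3.66-fold lower, and CD3E had 144 and 140. COL1A1 read 618 in spheroid and 852 in monolayer culture, DCN 132 and 209, and the endothelial gene PECAM1 475 and 270. LUM, COL3A1 and LYZ passed a floor only on a further probe set, LYZ with 172 in spheroid and 1.77 in monolayer culture.

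Across the 8 genes, ALDH3B1 was far lower in spheroid culture, ALDH1A3 and ALDH1B1 were moderately lower, ALDH3A1 and ALDH3A2 were moderately higher, and ALDH1A1, ALDH2 and ALDH7A1 differed little. At a limit of 3-fold, 0 of the 8 genes were higher and 1 was lower. Of the 13229 genes above the floor in either culture, 2.34% passed this limit upwards and 2.11% downwards. At 2-fold, the same 0 and 1 genes passed, where 6.86% of all these genes were higher and 5.5% lower. By any amount 3 of the 8 were higher and 5 lower, where 52.8% of all these genes were higher and 47.2% lower. The median log2 ratio of the 8 was -0.27 and that of all genes above the floor was 0.04. The log2 ratios of the 8 ran from -2.19 to 0.80, so the genes did not move as one group. For comparison, the robust SD of log2 ratios over 11528 genes above the floor in both cultures was 0.53, and where a gene had 2 or more such probe sets (5453 genes), the SD of the gap between the ratios of its brightest pair was 0.50.

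**Figure D1:**
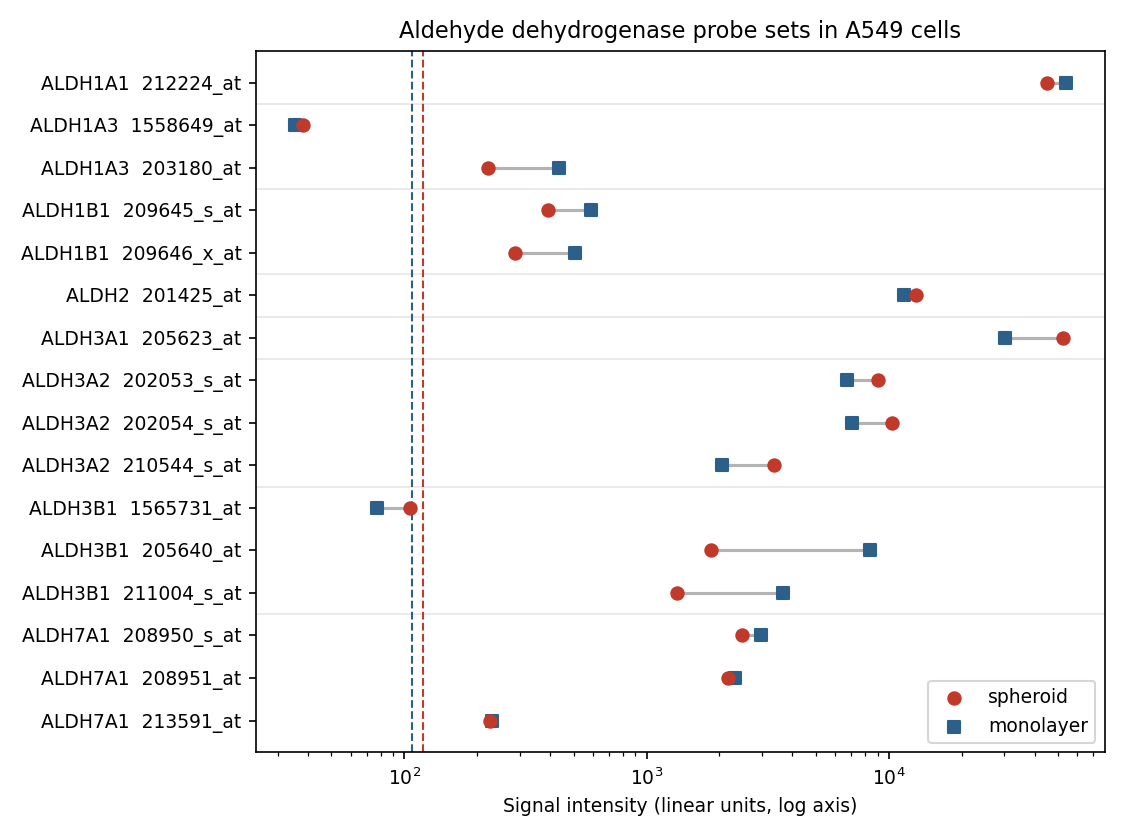
Signal intensity (linear units on a log axis) of each of the 16 probe sets of the 8 ALDH genes in spheroid culture (circles) and monolayer culture (squares), with 1 array per culture; dashed lines are the floors, 119 for spheroid and 108 for monolayer. The longest gap is that of ALDH3B1, whose brightest probe set read 1838 in spheroid and 8358 in monolayer culture, and 2 probe sets lie under both floors.

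The retinaldehyde dehydrogenases were not higher in spheroid culture. ALDH1A1, the isoform most often linked to high ALDH activity in stem-like cells, had a signal of 44858 in spheroid culture, against 54018 in monolayer culture, on its only probe set. This is 1.20-fold lower, and 34.0% of the genes in the same brightness bin (1 of 5 bins of equal size) had a lower ratio. Its transcript thus gave a very strong signal in both cultures with a small difference between them. ALDH1A3, the other retinaldehyde dehydrogenase of the group, had signals of 222 in spheroid culture and 433 in monolayer culture, 1.95-fold lower. Its second probe set read 38.0 in spheroid and 35.3 in monolayer culture and lay under both floors. ALDH1A2, the third enzyme with this activity, was close to the floor, with 130 in spheroid culture and 161 in monolayer culture.

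The mitochondrial enzymes differed in opposite directions, ALDH2 by little and ALDH1B1 by more. ALDH2, the main acetaldehyde dehydrogenase of the mitochondrion, had a signal of 12898 in spheroid culture, against 11608 in monolayer culture, 1.11-fold higher. ALDH1B1, its close mitochondrial relative, read 390 in spheroid culture and 591 in monolayer culture, 1.52-fold lower. Its second probe set gave 286 in spheroid culture and 506 in monolayer culture, 1.77-fold lower, so both probe sets ran the same way.

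The ALDH3 genes held both ends of the range. ALDH3A1, a cytosolic enzyme for aromatic and medium-chain aldehydes that is abundant in cornea and in airway tumours, had a signal of 52392 in spheroid culture, against 30054 in monolayer culture. This is 1.74-fold higher, with a log2 ratio of 0.80, and 10.3% of genes above the floor had a higher ratio. ALDH3A1 and ALDH1A1 lie near the top of the scale, ALDH3A1 at 72.8% of the highest signal on the spheroid array and 39.4% of that on the monolayer array, and ALDH1A1 at 62.4% and 70.7% of the same 2 maxima, spheroid and monolayer. Among 131 genes with a signal of at least 20000 on both arrays, a limit chosen after the values were seen, the robust SD of log2 ratios was 0.25, 1 gene had a higher ratio than ALDH3A1 and 40 had a lower ratio than ALDH1A1. Whether signals this strong understate a ratio was not tested.

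ALDH3A2, the fatty aldehyde dehydrogenase of the endoplasmic reticulum whose loss causes Sjögren-Larsson syndrome, was higher on all 3 of its probe sets. The brightest read 10342 in spheroid culture and 7036 in monolayer culture, 1.47-fold higher. The others read 8998 in spheroid against 6696 in monolayer culture and 3369 in spheroid against 2043 in monolayer culture, 1.34-fold and 1.65-fold higher. The size was modest, and the 3 probe sets were read on the same arrays, so their shared direction is not a replicate check.

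ALDH3B1, a membrane-associated enzyme that oxidises medium- and long-chain aldehydes from lipid peroxidation, was the single member past 3-fold. Its brightest probe set had a signal of 1838 in spheroid culture, against 8358 in monolayer culture, 4.55-fold lower. The log2 ratio of -2.19 was lower than that of all but 1.11% of genes above the floor, and than that of all but 0.477% of genes in the same brightness bin. A second probe set read 1333 in spheroid culture and 3644 in monolayer culture, 2.73-fold lower and so within 3-fold. The third lay under both floors, with 106 in spheroid and 76.9 in monolayer culture. With the geometric mean of all probe sets, the one at the floor included, the log2 ratio of ALDH3B1 was -1.17 and no member passed 3-fold. ALDH3B2, its nearest relative in the family, stayed at the floor in both cultures on both probe sets.

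ALDH7A1, also called antiquitin, which acts on the semialdehyde of lysine breakdown and whose loss causes pyridoxine-dependent epilepsy, was nearly level. Its brightest probe set read 2475 in spheroid culture and 2982 in monolayer culture, 1.20-fold lower. A second read 2169 in spheroid and 2326 in monolayer culture, and the third 226 in spheroid and 229 in monolayer culture, 1.07-fold and 1.02-fold lower. All 3 probe sets lay on the same side, with log2 ratios from -0.27 to -0.02.

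**Figure D2:**
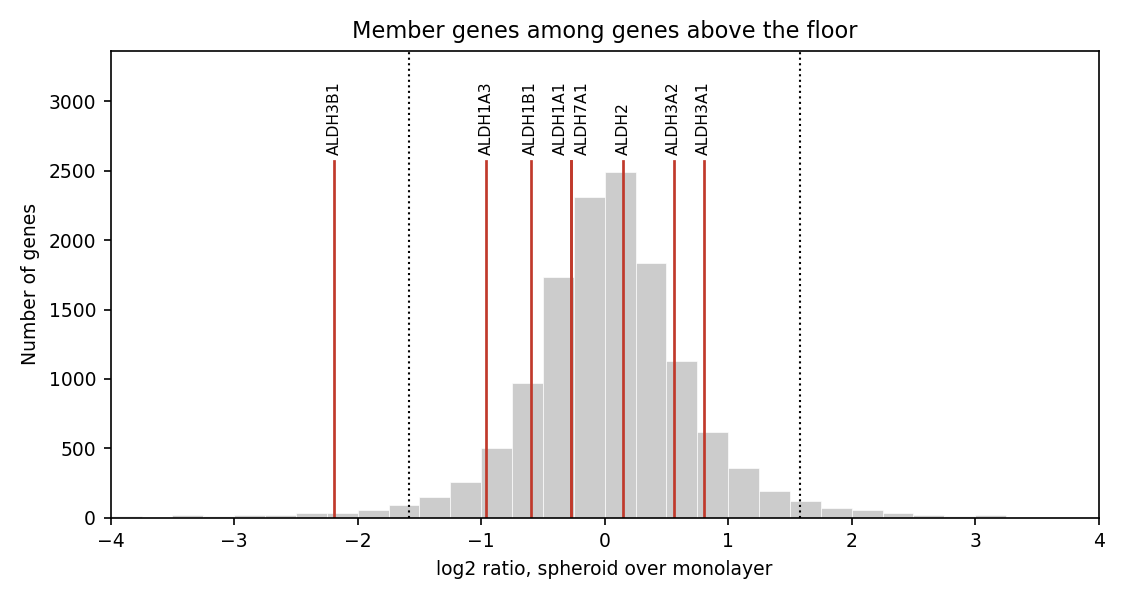
Number of genes (vertical axis) in steps of the log2 ratio of spheroid over monolayer (horizontal axis) for the 13229 genes above the floor in either culture, with a line at the ratio of each of the 8 ALDH genes; dotted lines stand at 3-fold in each direction, and the few genes beyond the ends of the axis are not drawn. ALDH3B1, at -2.19, is the single line outside the dotted limits, and ALDH3A1, at 0.80, is the line farthest to the right.

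Upstream sequence is given for ALDH3B1, the member past 3-fold, for ALDH3A2, which was higher on all its probe sets, and for ALDH1A3, the retinaldehyde dehydrogenase with the larger difference. RefSeq promoter entries (GRCh38.p14) were matched for 6 of the 8 genes, with 8 entries in all, and ALDH2 and ALDH3A1 were not among them. The 250 bases before each annotated start were searched on both strands for GCGTG, the core bound by the aryl hydrocarbon receptor (AHR), TGACNNNGC, the core of the antioxidant response element bound by NRF2, CCAAT and TATAAA, and matches are in capitals. The 4 sequences, each 5′ to 3′ on the strand of its gene, lie at chr11:68008297-68008546 and chr11:68010077-68010326 (both + strand, ALDH3B1), chr17:19648501-19648750 (+ strand, ALDH3A2) and chr15:100879581-100879830 (+ strand, ALDH1A3).
ALDH3B1 first start: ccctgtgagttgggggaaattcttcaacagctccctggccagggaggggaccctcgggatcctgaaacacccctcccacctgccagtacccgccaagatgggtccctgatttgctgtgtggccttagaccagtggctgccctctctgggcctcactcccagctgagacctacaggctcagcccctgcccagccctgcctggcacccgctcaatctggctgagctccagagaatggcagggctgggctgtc
ALDH3B1 second start: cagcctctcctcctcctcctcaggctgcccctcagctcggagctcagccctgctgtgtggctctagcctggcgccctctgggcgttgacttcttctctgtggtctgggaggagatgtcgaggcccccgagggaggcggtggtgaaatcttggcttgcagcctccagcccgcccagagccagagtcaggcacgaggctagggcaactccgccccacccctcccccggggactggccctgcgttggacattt
ALDH3A2 second start: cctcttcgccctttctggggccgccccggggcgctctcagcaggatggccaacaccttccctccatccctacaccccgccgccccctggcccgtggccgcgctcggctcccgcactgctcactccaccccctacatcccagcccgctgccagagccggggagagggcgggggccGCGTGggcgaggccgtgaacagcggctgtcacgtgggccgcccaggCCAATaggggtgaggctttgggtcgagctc
ALDH1A3 start: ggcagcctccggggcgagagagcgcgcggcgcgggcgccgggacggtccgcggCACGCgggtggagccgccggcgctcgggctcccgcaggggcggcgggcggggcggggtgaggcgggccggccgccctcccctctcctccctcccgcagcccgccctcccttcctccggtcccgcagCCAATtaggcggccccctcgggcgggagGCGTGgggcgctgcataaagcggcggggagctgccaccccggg

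Neither ALDH3B1 window held any of the 4 motifs. The ALDH3A2 window held GCGTG from -76 to -72 and CCAAT from -30 to -26, counted from the annotated start, while the window at the other ALDH3A2 start held none. The ALDH1A3 window, with a GC content of 82.4%, held CCAAT from -71 to -67 and GCGTG at 2 places, on the + strand from -43 to -39 and on the - strand from -197 to -193. ALDH1A1, ALDH1B1 and ALDH7A1 had 1 CCAAT each and none of the other motifs. Over 35116 promoter entries of the same length, 32.2% held GCGTG, 32.0% CCAAT, 10.9% TGACNNNGC and 10.7% TATAAA, and no 2 matches overlapped in the windows of these genes. A match here is a run of letters and does not show that a factor binds.

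None of the remaining 11 ALDH genes passed 3-fold. Of these 11, 9 were above the floor, 0 passed 3-fold upwards and 0 downwards, beside 2.34% and 2.11% of all genes above the floor. By any amount 5 were higher and 4 lower, where 52.8% and 47.2% of all these genes were. The median log2 ratio of the 9 was 0.09. ALDH5A1, the succinic semialdehyde dehydrogenase of GABA breakdown, read 1304 in spheroid culture and 944 in monolayer culture, 1.38-fold higher. ALDH6A1, which acts in valine and pyrimidine breakdown, read 1309 in spheroid culture and 956 in monolayer culture, with 3 of its 4 probe sets above the floor higher. ALDH18A1, the synthase that starts proline synthesis from glutamate, read 3196 in spheroid and 2511 in monolayer culture, 1.27-fold higher. ALDH1L2, the mitochondrial formyltetrahydrofolate dehydrogenase, read 442 in spheroid culture and 616 in monolayer culture and had the lowest log2 ratio of the 9, -0.48. ALDH9A1, ALDH16A1, ALDH1L1 and ALDH4A1 had log2 ratios of 0.09, 0.24, -0.24 and -0.04, and the second probe set of ALDH4A1 had 0.48. ALDH8A1 and ALDH3B2 stayed at the floor.

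**Figure D3:**
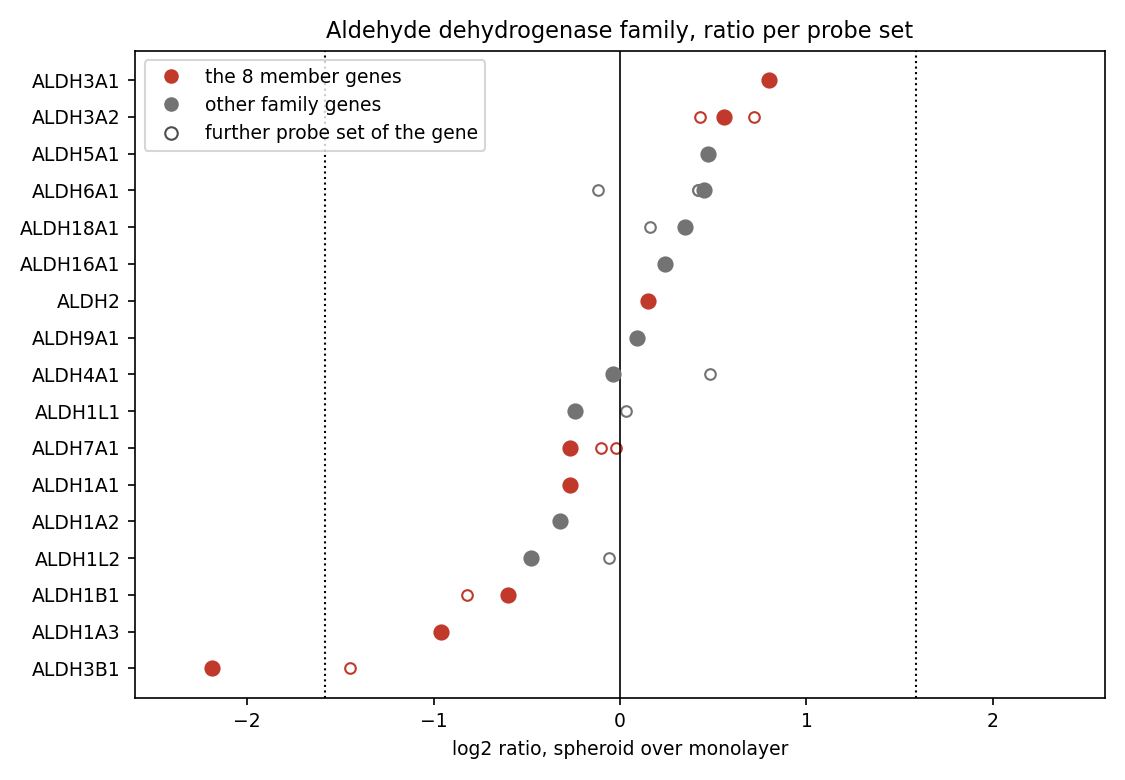
Log2 ratio of spheroid over monolayer (horizontal axis) for the 17 ALDH genes above the floor, ordered from the highest at the top; filled points are the brightest probe set of each gene, open points its further probe sets above the floor, red the 8 genes examined and grey the rest of the family, with dotted lines at 3-fold. ALDH3B1 is the single gene with a filled point outside the dotted lines, and the grey points lie between -0.48 and 0.48.

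Around the nearly level ALDH1A1, several genes that make, carry or respond to retinoids differed strongly between the cultures. Of 23 measured retinoid genes 3 passed the limit of 3-fold upwards in spheroid culture, 3 passed it downwards, 14 did neither and 3 stayed at the floor throughout. Over the 20 above the floor the median log2 ratio was -0.23. The background given above for all genes was 2.34% and 2.11%. The list was written with earlier results of these arrays known, and its counts are a description.

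The 3 genes past 3-fold upwards make retinaldehyde, the substrate of the ALDH1A enzymes, or carry its precursor retinol. RDH10, which oxidises retinol to retinaldehyde, had a signal of 12073 in spheroid culture, against 1630 in monolayer culture, 7.41-fold higher. Its second bright probe set read 10571 in spheroid and 1383 in monolayer culture, 7.64-fold higher. DHRS9, a further retinol-oxidising dehydrogenase, read 1438 in spheroid culture and 261 in monolayer culture, 5.52-fold higher, and its 3 probe sets were all higher. RBP4, the retinol carrier of plasma, read 2655 in spheroid culture and 606 in monolayer culture, 4.38-fold higher, with its other probe set at the floor. RDH11, a retinaldehyde reductase, read 11769 in spheroid and 4003 in monolayer culture, 2.94-fold higher and just within 3-fold. BCO1, which cleaves beta-carotene to retinaldehyde, read 293 in spheroid culture and 95.6 in monolayer culture, at least 2.71-fold higher.

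RBP4 is also a secreted liver protein, and several liver markers were higher too. Among 10 hepatocyte genes, 2 passed 3-fold upwards, 0 downwards, and 3 (APOA2, TTR and TF) stayed at the floor throughout. Over all genes above the floor, 2.34% passed that limit upwards and 2.11% downwards. By any amount 6 hepatocyte genes were higher and 1 lower, where 52.8% and 47.2% of all these genes were. ALB, the albumin gene, was at least 42.9-fold and SERPINA1 at least 5.02-fold higher. The summed signal of the 10 genes was 7504 in spheroid culture and 1700 in monolayer culture, or 2864 in spheroid and 1676 in monolayer culture without ALB. The part of this difference in the values of RBP4 was not tested.

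The lower genes included the reductase that runs against RDH10 and some, but not all, of the listed targets of retinoic acid. DHRS3, which reduces retinaldehyde to retinol and is itself induced by retinoic acid, had a signal of 203 in spheroid culture, against 2106 in monolayer culture, 10.4-fold lower on its only probe set. FABP5, a fatty acid carrier that can also bind retinoic acid, read 1951 in spheroid and 7759 in monolayer culture, 3.98-fold lower on a single probe set of a type that can match related sequences. TGM2, a transglutaminase induced by retinoic acid in many cells, read 2233 in spheroid and 7406 in monolayer culture, 3.32-fold lower, with all 3 probe sets above the floor lower. RARB, a retinoic acid receptor that is also a retinoic acid target, read 260 in spheroid culture and 543 in monolayer culture, 2.09-fold lower. CYP26B1, which degrades retinoic acid, read 550 in spheroid and 937 in monolayer culture, 1.70-fold lower, and CYP26A1 was at the floor in both cultures. PLAAT4, another listed target, went the other way, with 173 in spheroid and 107 in monolayer culture, at least 1.6-fold higher. RARRES1 read 1249 in spheroid and 1456 in monolayer culture, 1.17-fold lower, and its further probe sets had log2 ratios of 0.14 and -0.44. With the geometric mean of all probe sets, the log2 ratios of RBP4 (1.14), TGM2 (-1.35) and RDH11 (0.87) were within 3-fold and that of RARB was -0.46, while with quantile normalization RDH11 (1.61) was past 3-fold and 4 retinoid genes were higher by that much. When the floor was set at the 75th percentile RARB had -0.14, DHRS9 had 1.59 and DHRS3 had -2.10.

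**Figure D4:**
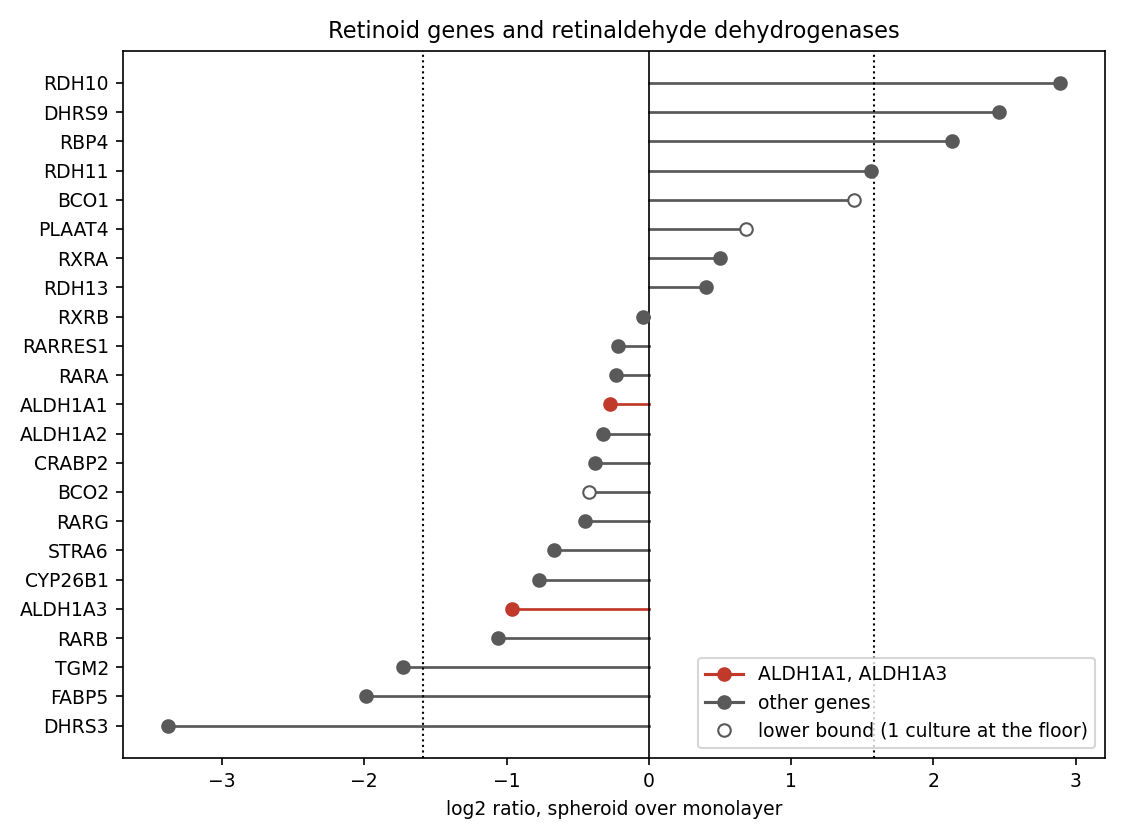
Log2 ratio of spheroid over monolayer (horizontal axis) for the 20 retinoid genes above the floor together with ALDH1A1, ALDH1A3 and ALDH1A2, each read from its brightest probe set and ordered from the highest at the top; open points are lower bounds and dotted lines mark 3-fold. RDH10 (2.89), DHRS9 (2.46) and RBP4 (2.13) lie beyond the limit on the right, DHRS3 (-3.38), FABP5 (-1.99) and TGM2 (-1.73) on the left, and ALDH1A1 (-0.27) and ALDH1A3 (-0.96) between.

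Of the enzymes that reduce aldehydes and ketones rather than oxidise them, none passed 3-fold on its brightest probe set. Of 20 measured aldo-keto reductases, carbonyl reductases and alcohol dehydrogenases, 0 passed 3-fold upwards, 0 passed it downwards and 5 stayed at the floor throughout, beside 2.34% and 2.11% of all genes above the floor. Among the 15 above the floor 9 were higher and 6 lower, where 52.8% and 47.2% of all genes above the floor were. The median log2 ratio of the 15 was 0.36. The probe sets of AKR1C1, which inactivates progesterone and has near-identical relatives that can share probes, disagreed, and it is named after its values were seen. The brightest read 43968 in spheroid and 45737 in monolayer culture, and the next of the same type was 1.04-fold lower too. Another read 7480 in spheroid and 2558 in monolayer culture, 2.92-fold higher, and the 2 dimmer ones were at least 4.30-fold and at least 5.10-fold higher. AKR7A2, a succinic semialdehyde reductase, read 1281 in spheroid culture and 2465 in monolayer culture, 1.92-fold lower, and DCXR, a xylulose reductase, read 1645 in spheroid and 2417 in monolayer culture, 1.47-fold lower. ADH6 and ADH4, alcohol dehydrogenases of liver, were at least 1.79-fold and at least 1.67-fold higher, with signals of 193 and 181 in spheroid culture, against 88.5 and 58.9 in monolayer culture. The liver markers given above differed in the same direction as ADH6 and ADH4, and their part in these values was not tested.

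ALDH3A1 is a known target of AHR, and the AHR battery held genes that were higher and genes that were not. Whether AHR had a part in the ALDH3A1 values was not tested. Of 9 measured genes 1 passed 3-fold upwards and 0 downwards, 7 did neither and 1 stayed at the floor. Of the 8 above it 4 were higher and 4 lower by any amount, with a median log2 ratio of 0.49. Over all genes above the floor, 2.34% and 2.11% passed 3-fold and 52.8% and 47.2% were higher and lower by any amount. AHR itself read 2459 in spheroid and 1231 in monolayer culture, 2.00-fold higher. Its partner ARNT read 324 in spheroid and 459 in monolayer culture, 1.42-fold lower, and at least 3.81-fold lower on another probe set. CYP1A2, a further target, was 1.38-fold lower. CYP1A1, the classical AHR target, read 892 in spheroid culture and 188 in monolayer culture, 4.74-fold higher, which was a log2 ratio of 0.90 with the floor at the 75th percentile. TIPARP, an AHR-induced repressor of the receptor, read 5634 in spheroid and 1957 in monolayer culture, 2.88-fold higher. CYP1B1 read 8743 in spheroid and 3466 in monolayer culture, 2.52-fold higher on its brightest probe set. Further CYP1B1 probe sets were 2.89-fold and 3.17-fold higher, the latter past 3-fold, and the last lay under both floors. AHRR, the AHR repressor, read 670 in spheroid culture and 737 in monolayer culture, 1.10-fold lower. NQO1, a target shared by AHR and NRF2, read 43240 in spheroid culture and 43856 in monolayer culture on its brightest probe set, while another read 44696 in spheroid and 29451 in monolayer culture, 1.52-fold higher.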

How the data were processed

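Signal intensity on a linear scale was deposited by the authors for 1 array per culture. MAS5 and GCOS stand in the submitters' notes on processing, with versions not given in the sources used here, and the methods name GeneSpring GX for later steps. With 2% of values trimmed at either end, both arrays averaged 499.9, so no further scaling was applied. Values below the median of an array over probe sets other than 62 controls were raised to it. Gene names came from the platform annotation. Of the probe sets 41097 had 1 gene, 1801 had several, 11777 had none listed, and 41043 names were updated by Entrez identifier; those with several genes were left out. The probe set brightest on average (log2 scale) stood for its gene. Ratios with 1 culture at the floor are lower bounds, and none is given with both there. The 5 brightness bins divide the genes above the floor in both cultures by mean log2 signal. Genes named are all ALDH genes and, from the pathway lists, those past 3-fold and up to 2 nearest to it on each side. AHR, AHRR, NQO1, AKR1C1, CYP26A1, PLAAT4, RARRES1, AASS, PIPOX, SLC25A21 and the markers of cell types were named with their values in view. The members and lists were chosen with earlier results of these data known. Alternatives were other floors, scalings, probe set rules and limits of 2-fold and 5-fold. The steps were tested on simulated data with noise of SD 0.2 (log2) on each array. That run checks the steps only and gives no error rate for the ratios reported here. Python 3.11.15, numpy 2.4.6, pandas 2.3.3 and matplotlib 3.10.9 were used. The number of arrays limits the precision.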

Additional observations from a re-analysis of the deposited data

How the results depend on the processing

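Each of the 8 ALDH genes kept the sign of its ratio under every alternative that gave it a value. The range of log2 ratios was -2.32 to -1.17 for ALDH3B1, -1.10 to -0.41 for ALDH1A3, -0.74 to -0.27 for ALDH1B1, -0.41 to -0.08 for ALDH1A1, -0.41 to -0.10 for ALDH7A1, 0.01 to 0.22 for ALDH2, 0.42 to 0.62 for ALDH3A2 and 0.66 to 0.94 for ALDH3A1. ALDH1A3 had no ratio under a 75th percentile floor, which both cultures failed to reach, and ALDH1B1 and ALDH3A2 had none when probe sets of the _s_at and _x_at types, which can match several transcripts or genes, were left out. The 1 ALDH gene at least 3-fold lower became 0 with the geometric mean of all probe sets and 0 at a limit of 5-fold. Dividing each array by its median shifted the median log2 ratio of all genes above the floor to -0.10.

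At a limit of 2-fold, 5 retinoid genes were higher and 4 lower, 1 lysine and choline gene was higher and 1 lower, and 3 AHR battery genes were higher, while 6.86% of all genes were at least 2-fold higher and 5.5% lower. At 5-fold, 2 retinoid genes were higher and 1 lower and 0 AHR battery genes were higher, beside 0.779% of all genes higher and 0.952% lower. Without the _s_at and _x_at types, 1 retinoid gene was at least 3-fold higher, because DHRS9 and RBP4 have no other probe set. With no floor, 3 carbonyl-reducing genes were at least 3-fold higher and 1 lysine and choline gene lower, beside 6.63% of all genes higher and 5.13% lower, and a 25th percentile floor left 1 carbonyl-reducing gene higher, beside 3.19%. A 75th percentile floor left 0 AHR battery genes at least 3-fold higher, beside 1.28%. The alternatives for single retinoid and AHR genes were chosen after the data were seen. No paired analysis was possible because each culture has 1 array. Signals near the floor, such as those of ALDH1A3 and ALDH1A2, limit what can be read from their ratios.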

Other observations

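Genes of lysine and choline breakdown, the pathways around ALDH7A1, showed no difference past 3-fold. Of 10 genes 7 were above the floor, 0 passed that limit upwards and 0 downwards, with a median log2 ratio of 0.06. Over all genes above the floor, 2.34% passed it upwards and 2.11% downwards. CRYM, a ketimine reductase of lysine breakdown that also binds thyroid hormone, read 558 in spheroid culture and 265 in monolayer culture, 2.11-fold higher. HYKK, the hydroxylysine kinase, read 219 in spheroid culture and 516 in monolayer culture, 2.36-fold lower. DHTKD1, a dehydrogenase subunit further down the lysine route, read 1121 in spheroid and 1526 in monolayer culture, 1.36-fold lower, and CHDH, the choline dehydrogenase, read 438 in spheroid and 366 in monolayer culture, 1.20-fold higher. AASS, the enzyme that opens the main lysine route, was at the floor in both cultures, as were PIPOX and SLC25A21.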
